A study of Mus musculus with 28 samples.

Results

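Macrophage transcripts were followed in every RNA sequencing library of a mouse reprogramming study through 9 marker genes, out of 54109 genes in the table of reprogramming libraries and 54838 in the table of induced pluripotent stem cell (iPSC) libraries. The genes were Lyz2, Adgre1, Csf1r, Tyrobp, Fcer1g, Ptprc, Ctss, Cd68 and Laptm5. They were chosen by symbol, with the level of Lyz2 already known to go with the replicate number of a library, so the values by replicate number below are a description. The questions asked of the other contrasts were whether the 9 genes also went with the 3-compound medium 3C or with UNC0638.

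The 12 reprogramming libraries came from mouse embryonic fibroblasts in 4 groups of 3, cultures derived from midgestation embryos. All cells carried Rosa26-rtTA and an Oct4-GFP reporter together with reprogramming factors under doxycycline control, from either an OKSM allele (heterozygous) or an OKS allele (homozygous). All were plated over irradiated feeder cells and received doxycycline (DOX) at 1 µg/ml, so reads of the feeder layer cannot be told apart from those of the reprogramming cells. DOX 3C UNC cells received 3C and 1 µM UNC0638, an inhibitor of the H3K9 methyltransferases G9a and GLP (UNC), DOX 3C cells received 3C alone, DOX UNC cells UNC alone, and DOX cells neither. The 3 compounds of 3C were 3 µM CHIR99021, a GSK3 inhibitor, 250 nM of TGF-b RI Kinase Inhibitor II and 50 µg/ml of L-ascorbic acid. The 6 iPSC libraries were 3 of iPSC UNC, from fibroblasts given UNC for the first 48 hours, and 3 of iPSC DMSO, from fibroblasts given DMSO. The labels did not say which allele each library carried, what the replicate numbers marked, or whether replicates were separate embryos or cultures. P-values therefore measure the spread between these libraries, which may be technical.

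Macrophages are phagocytes of the innate immune system. In the embryo they arise from yolk sac and fetal liver progenitors, settle in nearly all tissues, and depend on signals through the CSF1 receptor. Cultures made by trypsin digestion of whole embryos can carry them along with fibroblasts. Lyz2 encodes lysozyme M, an enzyme that cleaves bacterial cell walls, and Adgre1 encodes the surface protein F4/80. Csf1r encodes the receptor for CSF1 and interleukin 34. Tyrobp and Fcer1g encode signalling adaptors of activating receptors, and Ptprc encodes CD45, a phosphatase on all nucleated blood cells. Ctss encodes the lysosomal protease cathepsin S, Cd68 a glycoprotein of late endosomes and lysosomes, and Laptm5 a lysosomal membrane protein of blood cells.

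In the RefSeq annotation of GRCm38.p6 (mm10) the lysozyme gene Lyz2 (ENSMUSG00000069516) lay at chr10:117277541-117282272 and the surface protein gene Adgre1 (ENSMUSG00000004730) at chr17:57358581-57483529, and the identifier of Csf1r was ENSMUSG00000024621. The adaptor and phosphatase genes were Tyrobp (ENSMUSG00000030579) at chr7:30413782-30417582, Fcer1g (ENSMUSG00000058715) at chr1:171229572-171234349 and Ptprc (ENSMUSG00000026395) at chr1:138062859-138175756. The lysosomal genes were Ctss (ENSMUSG00000038642) at chr3:95526786-95556405, Cd68 (ENSMUSG00000018774) at chr11:69664213-69666170 and Laptm5 (ENSMUSG00000028581) at chr4:130912890-130936148.

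Upstream sequence was available from RefSeq (GRCm38.p6, the assembly also named mm10) for 6 of the 9 genes. The 250 bases before a start annotated in RefSeq are shown for genes with different patterns in the libraries. These are 2 that went with replicate number, Lyz2 and Fcer1g, and the 2 called lower with 3C in the absence of UNC, Laptm5 and Ctss. Capitals mark AGGAAG or its reverse complement CTTCCT, letters found in many sites of ETS factors such as PU.1, the product of Spi1. All are given 5′ to 3′ on the strand of the gene.
Lyz2: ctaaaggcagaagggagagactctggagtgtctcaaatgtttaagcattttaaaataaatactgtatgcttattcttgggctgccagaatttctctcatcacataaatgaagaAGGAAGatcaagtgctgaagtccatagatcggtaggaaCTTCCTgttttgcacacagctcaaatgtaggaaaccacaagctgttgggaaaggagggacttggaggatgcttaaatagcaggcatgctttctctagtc
Fcer1g: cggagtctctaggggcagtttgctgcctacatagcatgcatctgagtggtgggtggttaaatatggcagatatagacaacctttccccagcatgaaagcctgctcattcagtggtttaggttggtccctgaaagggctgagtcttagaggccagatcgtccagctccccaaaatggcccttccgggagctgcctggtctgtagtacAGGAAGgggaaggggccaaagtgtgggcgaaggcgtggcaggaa
Laptm5: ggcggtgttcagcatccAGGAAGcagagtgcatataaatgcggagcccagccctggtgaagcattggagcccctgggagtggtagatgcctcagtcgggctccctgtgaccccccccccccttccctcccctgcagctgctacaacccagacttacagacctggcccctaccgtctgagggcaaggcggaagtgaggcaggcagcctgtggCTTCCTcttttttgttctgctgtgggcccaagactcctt
Ctss: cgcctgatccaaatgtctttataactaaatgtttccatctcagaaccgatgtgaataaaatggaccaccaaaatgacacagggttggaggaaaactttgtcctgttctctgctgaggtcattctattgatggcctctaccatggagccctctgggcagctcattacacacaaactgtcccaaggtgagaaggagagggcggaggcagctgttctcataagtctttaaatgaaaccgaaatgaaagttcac

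The Lyz2 stretch was chr10:117282273-117282522 on the minus strand and the Fcer1g stretch chr1:171234350-171234599 on the minus strand. The Laptm5 stretch was chr4:130913066-130913315 on the plus strand, before a transcript start that lies inside the span given for that gene, and the Ctss stretch chr3:95526536-95526785 on the plus strand. Searched on both strands, AGGAAG occurred 2 times for Lyz2, the farthest starting 137 bases before the start. It occurred 1 time for Fcer1g and 2 times for Laptm5, with no match in the Ctss stretch. Of the 6 genes with sequence 4 held it, the other being Ptprc, while it was in 29.5% of 32851 mouse promoter stretches of the same length. The longer GAGGAAGT was in 2.44% of all stretches and in 0 of the 6 genes.

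Depth was 10.62 to 20.21 M reads in genes per reprogramming library (M is 1000000 reads) and 21.59 to 25.41 M per iPSC library. The ranges by replicate number overlapped, with 12.81 to 20.21 M for replicate 2, 10.62 to 19.35 M for replicate 3 and 12.65 to 18.07 M for replicate 1. Levels are counts per 1000000 reads in genes (CPM) and are not divided by gene length, so they are compared between libraries and not between genes. The fibroblast genes Col1a1, Col1a2 and Vim each stood at 596 CPM or more in all 12 reprogramming libraries. The pluripotency gene Nanog had 2 to 10 reads there, against 9203 reads or more in the iPSC libraries. One library stood apart: DOX 3C replicate 1 had 1056 reads of the globin gene Hbb-bs, against 72 and 120 in the other DOX 3C libraries. It also had 27 reads of the neutrophil gene S100a8, while no other library had more than 4. Because these are bulk samples, fewer cells of a type and less RNA per cell cannot be told apart in any value below. Whether the authors counted reads by strand was not given, so reads from a gene and from an antisense partner cannot be told apart either.

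Lyz2 was lowest in replicate 1 of all 4 reprogramming groups. It stood at 13.6 and 14.1 CPM in replicates 2 and 3 of DOX 3C UNC, against 2.29 CPM in replicate 1. In DOX 3C it stood at 17.4 and 12.1 CPM in replicates 2 and 3, against 2.90 CPM in replicate 1. In both groups with 3C replicate 1 was thus far below the others, while the order of replicates 2 and 3 differed. In DOX UNC, Lyz2 was at 10.3 and 7.95 CPM in replicates 2 and 3, against 1.55 CPM in replicate 1. In DOX it was at 10.8 and 6.40 CPM in replicates 2 and 3, against 1.34 CPM in replicate 1. Behind these levels were 68 to 352 reads in replicates 2 and 3, against 17 to 37 reads in replicate 1. The lowest of the 8 libraries numbered 2 or 3 lay above the highest of the 4 numbered 1, and the ratio of the mean levels was 5.73. Lyz1, the near-identical neighbouring lysozyme gene, had 0 reads in all 12 libraries.

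**Figure D1:**
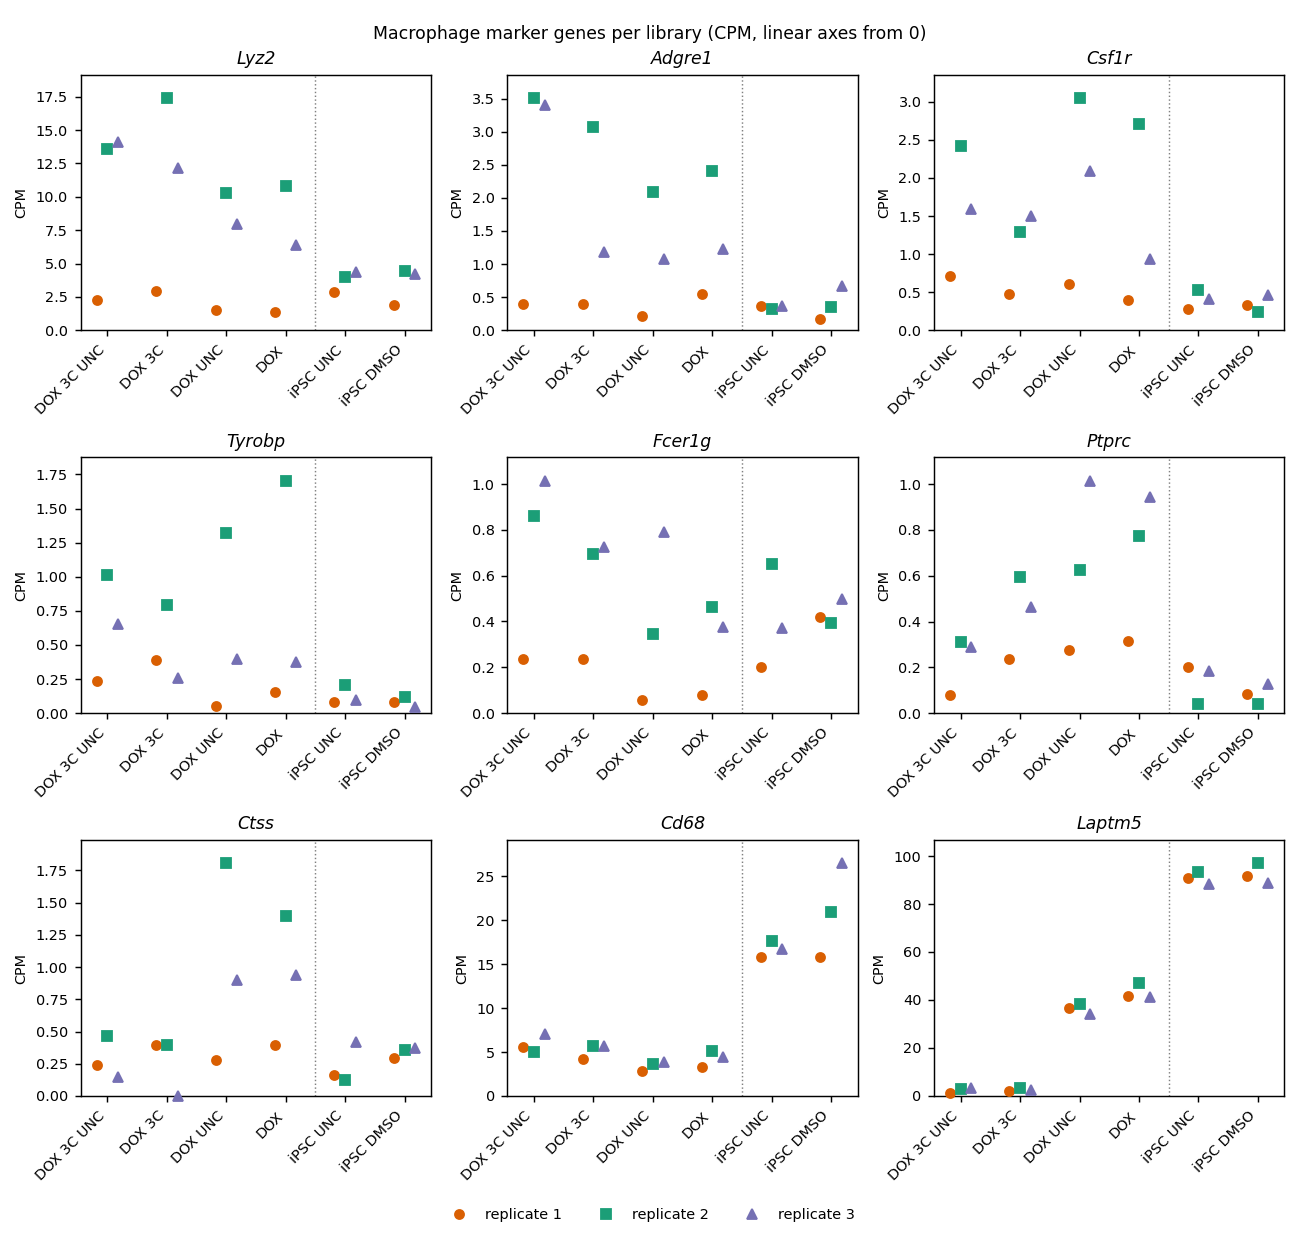
Level of each of the 9 genes in every library, in CPM on linear axes from 0, with a point per library, its shape and colour giving the replicate number, and the iPSC groups right of the dotted line. Lyz2, Adgre1, Csf1r, Fcer1g and Ptprc are lowest in replicate 1 of all 4 reprogramming groups, while Laptm5 separates the groups with 3C (1.26 to 3.34 CPM) from those without (34.0 to 47.1 CPM).

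The F4/80 gene Adgre1 was likewise lowest in replicate 1 of every group. In DOX 3C UNC it had 45 and 47 reads in replicates 2 and 3, against 5 in replicate 1, and in DOX 3C 62 and 23, against 5. In DOX UNC it had 30 and 19 reads in replicates 2 and 3, against 4 in replicate 1, and in DOX 31 and 13, against 7. Again no library numbered 2 or 3 was as low as any numbered 1, and the ratio of the mean CPM was 5.75. The receptor gene Csf1r had 31 and 22 reads in replicates 2 and 3 of DOX 3C UNC, against 9 in replicate 1, and 26 and 29 in DOX 3C, against 6. It had 44 and 37 reads in replicates 2 and 3 of DOX UNC, against 11 in replicate 1, and 35 and 10 in DOX, against 5. Csf1r was therefore also lowest in replicate 1 of every group, with a ratio of 3.57 in mean CPM.

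The adaptor gene Fcer1g had 5 to 14 reads in 7 of the 8 libraries numbered 2 or 3 and 4 in the other, against 1 to 3 reads in replicate 1, a ratio of 4.34 in mean CPM. Tyrobp, the other adaptor gene, stood highest in replicate 2 of every group, at 13 reads in DOX 3C UNC, 16 in DOX 3C, 19 in DOX UNC and 22 in DOX. Its replicate 3 libraries were lower, at 4 to 9 reads, and its replicate 1 libraries had 1 to 5 reads. In DOX 3C, Tyrobp had 5 reads in replicate 3 and 5 in replicate 1, so that gene was lowest in replicate 1 of 3 groups only. Ptprc, the CD45 gene, was lowest in replicate 1 of all 4 groups, with 4 to 18 reads in replicates 2 and 3 against 1 to 5 in replicate 1. Its 2 sets of libraries overlapped, and the ratio of the mean CPM was 2.77.

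The other 3 genes, all lysosomal, were lowest in replicate 1 of only 2 or 3 groups. Ctss had 18 and 10 reads in replicates 2 and 3 of DOX, against 5 in replicate 1, and 26 and 16 in DOX UNC, against 5. In DOX 3C UNC it had 6 and 2 reads in replicates 2 and 3, against 3 in replicate 1, and in DOX 3C 8 and 0, against 5. Ctss was therefore lowest in replicate 1 only in the groups without 3C. The 0 of DOX 3C replicate 3 allows up to 3 reads, or 0.155 CPM. Cd68 was lowest in replicate 1 of 3 groups, but by little, at 3.68 to 7.11 CPM in replicates 2 and 3 against 2.88 to 5.61 CPM in replicate 1, a ratio of 1.27. Laptm5 was lowest in replicate 1 of both groups with 3C, at 3.04 and 3.34 CPM in replicates 2 and 3 of DOX 3C UNC, against 1.26 CPM in replicate 1, and at 3.12 and 2.58 CPM in DOX 3C, against 1.96 CPM. Its pooled ratio of 1.06 is set by the much higher groups without 3C, where replicate 3 was lowest.

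In all, 5 of the 9 genes were lowest in replicate 1 of all 4 groups, a pattern held by 3.18% of the 16138 genes tested in the reprogramming table. In 3 or 4 groups 7 of the 9 were lowest in replicate 1, beside 14.2% of genes tested. None of the 9 was lowest in replicate 2 of all groups (4.08% of all genes) or in replicate 3 of all groups (2.39%). For 4 of the 9 genes all 8 libraries numbered 2 or 3 lay above all 4 numbered 1, against 0.18% of genes tested. These counts use the contrast by which the genes were chosen and support nothing. The filter asked for 3 or more libraries with a value of 10 or higher, and all 9 passed, but Adgre1, Tyrobp, Fcer1g, Ctss and Ptprc passed it only through libraries numbered 2 or 3, which by itself favours higher values there. For Ctss and Ptprc the libraries that passed were also all without 3C.

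A wider list of 38 macrophage and myeloid genes was described in the same way. Of them 14 were lowest in replicate 1 of all 4 groups, beside the same 3.18% of genes tested. Only 20 of the 38 were among the genes tested, so the count and that share cover unlike sets. The ratio of replicates 2 and 3 over replicate 1 was highest among well-read genes for the complement gene C1qc, at 11 to 38 reads against 2 to 4. The mean CPM of C1qc differed 8.56-fold between the sets. C1qa, C1qb and the scavenger receptor gene Msr1 also had ratios above 6. The mannose receptor gene Mrc1 had 11 to 67 reads in replicates 2 and 3, against 3 to 17 in replicate 1. Lcp1, which encodes the actin-bundling protein L-plastin, had 25 to 98 reads in replicates 2 and 3, against 7 to 50 in replicate 1. The macrophage factor gene Spi1 had 1 to 9 reads in replicates 2 and 3, against 0 to 2 in replicate 1.

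Other genes of the wider list did not have that order. Lgals3, the galectin-3 gene, had a ratio of 1.02 at 127 CPM or more in every reprogramming library. Cd14 had a ratio of 0.86 and the phagocytic receptor gene Mertk 0.72. The hemoglobin scavenger receptor gene Cd163 had 1 read over all 12 libraries, and Folr2 had 3. The 13 lysosome genes of all cell types had a median ratio of 1.01, with Ctsd alone lowest in replicate 1 of all 4 groups. None of the fibroblast, erythroid, neutrophil, mast cell, lymphocyte, megakaryocyte, endothelial or pluripotent cell genes on the lists was lowest in replicate 1 of all groups. Some had another order by number. The fibroblast genes Thy1 and Pdgfrb were lowest in replicate 2 of all 4 groups, as were 4.08% of genes tested. The endothelial gene Tek and the neutrophil gene Ltf were lowest in replicate 3 of all 4 (2.39%). The fibroblast gene Pdgfra was highest in replicate 1 of all 4, with a ratio of 0.66.

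**Figure D2:**
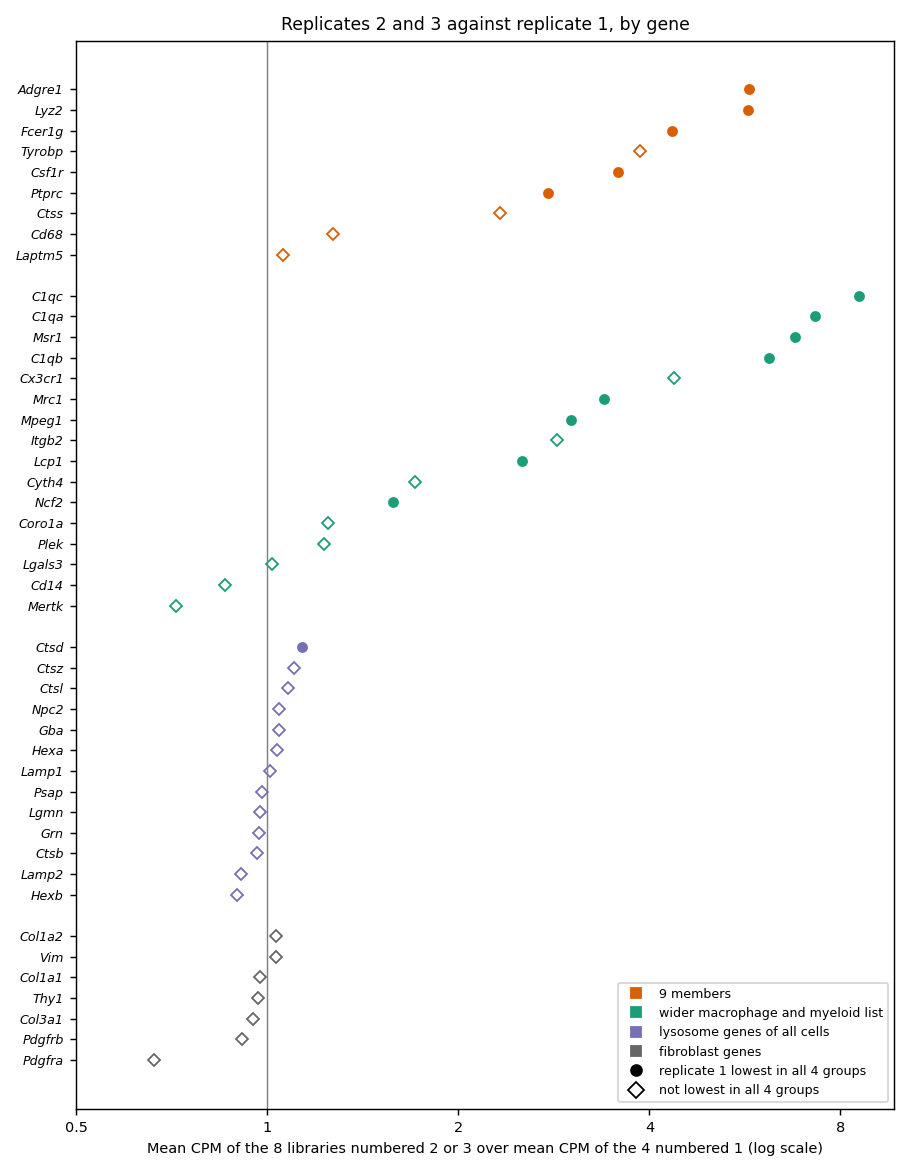
Mean CPM of the 8 libraries numbered 2 or 3 over the mean CPM of the 4 numbered 1, on a log axis, for the 9 genes and for listed macrophage, lysosome and fibroblast genes with at least 100 reads over the 12 libraries. Filled circles mark genes lowest in replicate 1 of all 4 groups. The 9 genes run from 1.06 (Laptm5) to 5.75 (Adgre1), while the 13 lysosome genes lie around 1.

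The level of other cell types was set beside this order. Summed over all 9 genes the level was 24.5 to 72.5 CPM in replicates 2 and 3, against 11.1 to 48.2 CPM in replicate 1, which overlapped. Within each group that sum was lowest in replicate 1, at 48.2 CPM in DOX against 72.5 and 57.0 CPM. It was 42.5 against 61.4 and 52.1 CPM in DOX UNC, and 11.2 against 33.1 and 24.5 CPM in DOX 3C. In DOX 3C UNC it was 11.1 against 30.2 and 31.7 CPM. The same order held without Lyz2. Without Laptm5 and Cd68, left out after the values were seen, the other 7 genes summed to 11.2 to 24.2 CPM in replicates 2 and 3, against 3.04 to 5.02 CPM in replicate 1, a separation that this choice of genes fixes. The wider list summed to 167 to 428 CPM in replicates 2 and 3, against 153 to 390 CPM in replicate 1, with Lgals3 as most of it. Its sum was also lowest in replicate 1 of every group. The 7 fibroblast genes summed to 7781 to 15078 CPM in replicates 2 and 3, against 8621 to 14312 CPM in replicate 1. The 13 lysosome genes summed to 2714 to 3997 CPM in replicates 2 and 3, against 2750 to 3946 CPM in replicate 1. The sums of the fibroblast and lysosome genes overlapped between replicate numbers, and neither was lowest in replicate 1 of every group. By treatment the sum of all 9 genes was 11.1 to 33.1 CPM in the 6 libraries with 3C, against 42.5 to 72.5 CPM in the 6 without, which did not overlap, Laptm5 being the gene with the most reads in the 6 without. The wider list was at 373 to 428 CPM with 3C, against 153 to 185 CPM without, in the opposite direction. The sum of the 7 genes overlapped, at 4.19 to 24.2 CPM in the 6 libraries with 3C, against 3.04 to 20.2 CPM in the 6 without. It was 3.04 to 22.2 CPM in the 6 libraries with UNC, against 3.24 to 24.2 CPM in the 6 without. Erythroid genes summed to 8.40 to 16.8 CPM in replicates 2 and 3, against 7.91 to 138 CPM in replicate 1, the highest being DOX 3C replicate 1. Neutrophil genes summed to 0.546 to 3.39 CPM in replicates 2 and 3, against 0.791 to 8.24 CPM in replicate 1. Of the mast cell genes Cpa3, Fcer1a and Tpsb2 were at 0 reads in all 12 libraries, and the 10 lymphocyte genes summed to at most 6 reads in a library.

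**Figure D3:**
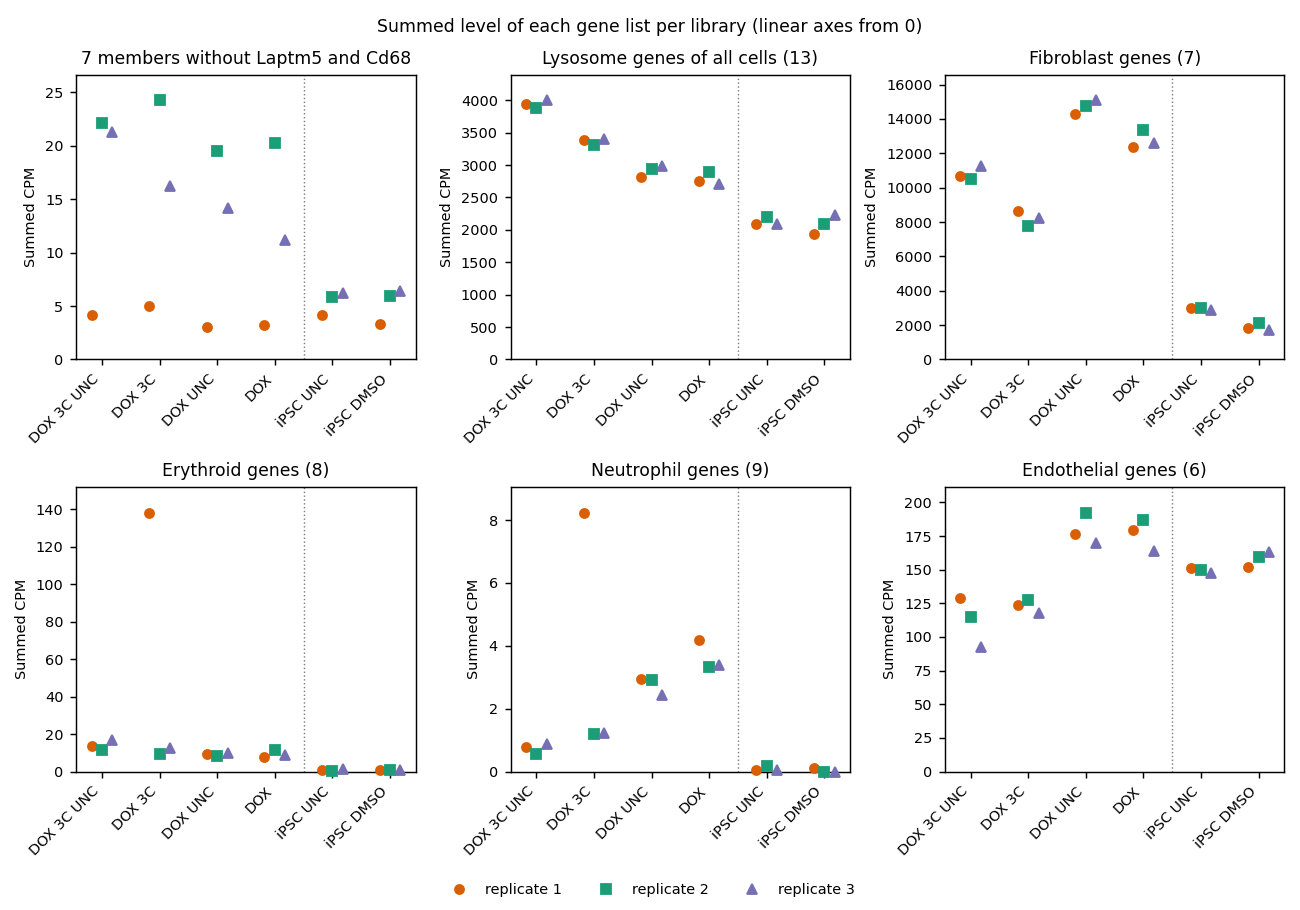
Summed CPM of 6 gene lists in every library, on linear axes from 0, with shapes and colours for the replicate number and the iPSC groups right of the dotted line. The 7 macrophage genes, from which Laptm5 and Cd68 were left out after their values were seen, are at 3.04 to 5.02 CPM in replicate 1 of the reprogramming groups and at 11.2 to 24.2 CPM in replicates 2 and 3, and the single high point of the erythroid and neutrophil lists is DOX 3C replicate 1.

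With 3C, 2 of the 9 genes were called lower in the absence of UNC, Laptm5 and Ctss. With UNC present, Laptm5 was called lower and Cd68 higher. The other genes did not pass that test, which leaves replicate number out, in either comparison. With a block for replicate number 6 of the 9 were called with UNC and 3 without, beside 51.5% and 53.4% of all genes. Same-numbered libraries were taken as paired, and the blocked values are given below. Laptm5 stood at 1.26, 3.04 and 3.34 CPM in DOX 3C UNC, against 36.6, 38.2 and 34.0 CPM in DOX UNC. It stood at 1.96, 3.12 and 2.58 CPM in DOX 3C, against 41.7, 47.1 and 41.3 CPM in DOX. All 6 libraries with 3C thus lay far below all 6 without, whatever their replicate number. The log2 fold change was -3.96 ± 0.25 (SE) with UNC and -4.12 ± 0.25 without it, with limma adjusted p of 6.40e-10 and 3.62e-10.

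Ctss had 5, 8 and 0 reads in DOX 3C, against 5, 18 and 10 in DOX. The groups met at 5 reads, that of replicate 1 in both. Its log2 fold change was -1.91 ± 0.73 (limma adjusted p = 0.0387), and the call was lost without DOX 3C replicate 3 (adjusted p = 0.245), without DOX replicate 2 (0.142) or without DOX replicate 3 (0.0953). With no expression filter the call was also lost (limma adjusted p = 0.0725). Ctss passed the filter only through libraries without 3C, where it was high, so its calls are no support for a fall with 3C. In DOX 3C UNC it had 3, 6 and 2 reads, against 5, 26 and 16 in DOX UNC, with a log2 fold change of -1.44 ± 0.73 (limma adjusted p = 0.118). With a block for replicate number that difference was called (adjusted p = 0.0476).

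Cd68 stood at 5.61, 5.00 and 7.11 CPM in DOX 3C UNC, against 2.88, 3.68 and 3.89 CPM in DOX UNC, so that the groups did not overlap. The log2 fold change was 0.70 ± 0.20 (limma adjusted p = 0.00719). Without UNC it stood at 4.24, 5.69 and 5.63 CPM in DOX 3C, against 3.24, 5.11 and 4.43 CPM in DOX, which overlapped, with a log2 fold change of 0.24 ± 0.20 (limma adjusted p = 0.327). Among the 13 lysosome genes of all cell types 9 rose and 0 fell with 3C in the presence of UNC. Of all genes tested 23.9% were called higher and 23.5% lower in that comparison.

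The 2 calls in each comparison stand beside a share of all genes called of 49.4% of 16138 genes for 3C without UNC (24.7% lower) and 47.4% for 3C with UNC (23.9% higher and 23.5% lower). With a block for replicate number the calls were 6 of the 9 with UNC and 3 without. The median log2 fold change of the 9 genes was 0.50 with UNC, beside 0.01 for all genes, and -0.11 without UNC, beside 0.02 for all genes. Both medians changed sign with single libraries left out, running from -0.42 to 0.75 with UNC and from -0.73 to 0.40 without it, and that with UNC was 0.11 without the 4 libraries numbered 1. The comparisons of UNC given further on use the same 12 libraries.

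For the genes that went with replicate number, the spread within a group was wide in that test. Lyz2 had a log2 fold change of 0.85 ± 0.82 for 3C without UNC and 0.54 ± 0.82 for 3C with UNC (limma adjusted p = 0.416 and 0.623). Taken library by library of the same number, Lyz2 was higher with 3C in all 3 numbers of both comparisons, by 2.16, 1.62 and 1.90 times without UNC and 1.48, 1.32 and 1.78 times with it. With a block for replicate number the same log2 fold changes had an SE of 0.15 and limma adjusted p of 5.09e-05 and 0.00393. Without the 4 libraries numbered 1 they were 0.75 ± 0.23 (adjusted p = 0.0164) and 0.57 ± 0.23 (0.057). Leaving those libraries out, 3 of the 9 genes were called in each comparison, beside 43% of all genes without UNC and 42.1% with it.

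Adgre1 was called under the block for 3C with UNC, at 0.97 ± 0.32 (limma adjusted p = 0.0165), against ± 0.82 and an adjusted p of 0.359 without the block. It was higher with 3C in all 3 numbers there, and in 1 of 3 numbers without UNC, where the log2 fold change was -0.09 ± 0.82 (limma adjusted p = 0.94). Ptprc had 1, 4 and 4 reads in DOX 3C UNC, against 5, 9 and 18 in DOX UNC, and was lower in every number. Its log2 fold change was -1.28 ± 0.55 (limma adjusted p = 0.0644), and -1.28 ± 0.42 under the block (0.0139). Ptprc, like Ctss, passed the filter only through libraries without 3C, which by itself favours lower values with 3C. With the block 6 of the 9 genes were called for 3C with UNC, 3 higher and 3 lower, beside 51.5% of all genes (26.1% higher and 25.4% lower). Without UNC it called 3 of the 9, Lyz2 higher and Laptm5 and Ctss lower, beside 53.4% (26.8% higher and 26.7% lower). Leaving out a single library gave calls for 3C with UNC to Ctss (adjusted p = 0.0324) and Ptprc (0.0218) without DOX UNC replicate 1, and to Adgre1 (0.0494) without DOX 3C UNC replicate 1.

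Csf1r, Tyrobp and Fcer1g were not called for 3C in either fit. Csf1r had log2 fold changes of -0.21 ± 0.63 with UNC and -0.11 ± 0.63 without, and their 95% intervals ran from -1.54 to 1.12 and from -1.44 to 1.23. With the block for replicate number the intervals of Csf1r were narrower, from -0.85 to 0.42 with UNC and from -0.74 to 0.53 without. Fcer1g was higher with 3C in all 3 numbers of both comparisons, at 0.90 ± 0.71 with UNC and 0.76 ± 0.71 without. Tyrobp stood at 0.50 ± 0.81 and -0.19 ± 0.81.

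**Figure D4:**
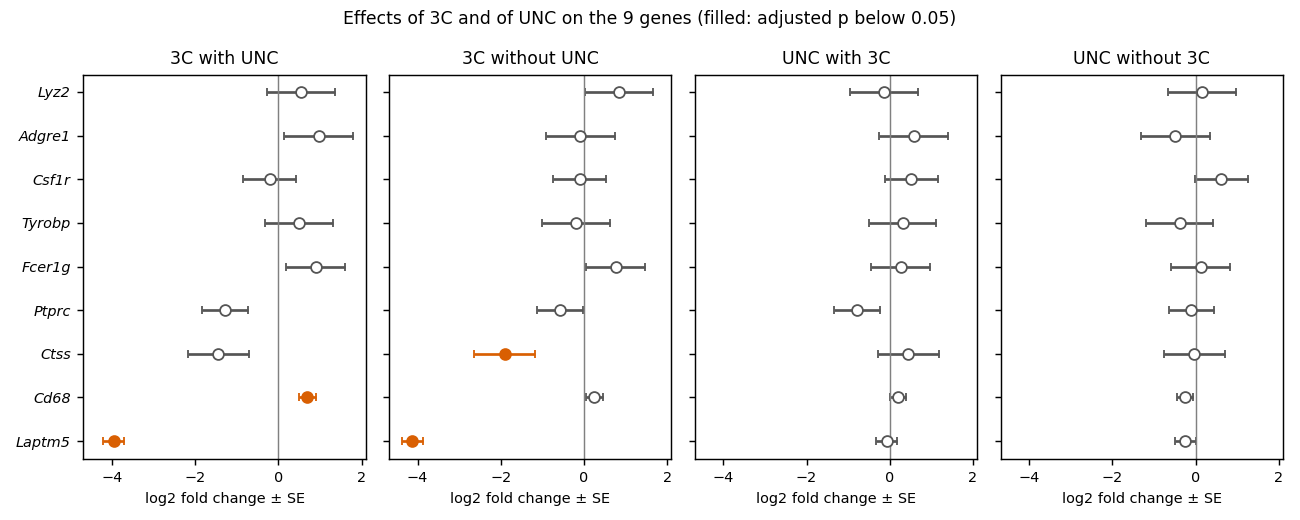
Log2 fold change of each of the 9 genes with its SE, from limma on log2(value + 1) over 12 libraries without a block for replicate number. Panels are for 3C with and without UNC and for UNC with and without 3C. Filled points have an adjusted p below 0.05: Laptm5 in both 3C panels, Cd68 for 3C with UNC and Ctss for 3C without UNC, with none in the UNC panels.

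The wider list also held genes called in both directions under 3C. Of its 38 genes 20 were tested, and 5 were called for 3C with UNC and 4 without UNC, a smaller share than the 47.4% and 49.4% of all genes. Lgals3 rose, to 365, 390 and 370 CPM in DOX 3C UNC, against 133, 137 and 129 CPM in DOX UNC, a log2 fold change of 1.44 ± 0.05. The fractalkine receptor gene Cx3cr1 fell, to 2, 3 and 2 reads in DOX 3C UNC, against 8, 19 and 33 in DOX UNC. Fcgr2b, an inhibitory Fc receptor gene, fell to 0, 2 and 1 reads, against 7, 13 and 7. These groups did not overlap for any of the 3 genes, but the share of all genes without overlap was not counted. Cx3cr1 and Fcgr2b passed the expression filter only through libraries without 3C, where they were high. Their calls are therefore no support for a fall with 3C. Lcp1 fell by 1.75 ± 0.51 on the log2 scale with UNC and by 1.56 ± 0.51 without it. Slc11a1, a metal transporter gene of phagosomes, rose by 1.63 ± 0.60 with UNC, and without UNC had 1.33 ± 0.60 (limma adjusted p = 0.0773). The call of Slc11a1 was lost without any of 5 single libraries, with adjusted p of up to 0.11. Slc11a1 passed the filter only through libraries with 3C, where it was high. That of Lcp1 was lost without DOX 3C UNC replicate 1 (0.0601) and, in the absence of UNC, without DOX replicate 2, DOX replicate 3 or DOX 3C replicate 1 (up to 0.0916). That of Cx3cr1 with UNC was lost without DOX UNC replicate 3 (0.0561).

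With the block 8 of the 20 were called with UNC, beside 51.5% of all genes, and 10 without it, beside 53.4%. The genes gained with UNC were Mrc1 at 1.41 ± 0.25, the perforin gene Mpeg1 at -1.13 ± 0.32 and C1qa at -1.73 ± 0.46. Mrc1 was also gained without UNC, at 1.44 ± 0.25 (limma adjusted p = 4.76e-05). Lyz2 reads made up 54.7 to 74.6% of the reads of the 7 genes in the 6 libraries with 3C, with a median of 63.9%, against 41.5 to 57.1% in the 6 without, with a median of 53.0%. Ctss made up 0 to 7.81% of them with 3C, against 6.35 to 12.2% without. Both pairs of ranges overlapped.

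The CSF1 receptor ligands came from a separate list of 2 genes. Csf1 stood at 302, 278 and 289 CPM in DOX 3C UNC, against 217, 230 and 221 CPM in DOX 3C, a log2 fold change of 0.39 ± 0.06 for UNC with 3C (limma adjusted p = 0.000479). In that comparison 6 of 7 fibroblast genes were also called higher, beside 1244 of 16138 genes tested. Their part in the result was not tested. In DOX UNC it stood at 205, 171 and 198 CPM, against 189, 169 and 191 CPM in DOX, which overlapped (0.08 ± 0.06, adjusted p = 0.772). Csf1 rose with 3C by 0.55 ± 0.06 in the presence of UNC and by 0.24 ± 0.06 in its absence. Il34 rose with 3C by 0.83 ± 0.17 and 0.57 ± 0.17, and with UNC in the presence of 3C by 0.54 ± 0.17 (limma adjusted p = 0.042). That last call was lost without any of 6 single libraries, and the call for 3C without UNC was lost without DOX 3C replicate 2 (0.46, adjusted p = 0.0509). The level of the receptor gene Csf1r did not pass the test in any of these comparisons.

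No effect of UNC on any of the 9 genes passed the test. For UNC with 3C their log2 fold changes ran from -0.79 to 0.57, and limma called 0 of 9 beside 11.6% of all genes, with 0 at an unadjusted p below 0.05. For UNC without 3C they ran from -0.48 to 0.62, and limma called 0 of 9 beside 0.607% of all genes, again with 0 unadjusted. edgeR on the recovered reads also called 0 of 9 in both. DESeq2 gave no adjusted p for 4 of the 9 genes with 3C and 6 without it, called 0 of the rest, and had 1 gene at an unadjusted p below 0.05 for UNC without 3C. Lyz2 differed by -0.14 ± 0.82 with 3C and 0.16 ± 0.82 without, with a 95% interval from -1.87 to 1.58 in the first. Laptm5 stood at 36.6, 38.2 and 34.0 CPM in DOX UNC, against 41.7, 47.1 and 41.3 CPM in DOX. Those 3 libraries lay below all 3 of DOX, yet the log2 fold change of -0.24 ± 0.25 was not called (limma adjusted p = 0.848). Cd68 had -0.26 ± 0.20 for UNC without 3C and 0.20 ± 0.20 with it. The difference between the 2 effects of UNC was called for 0 of the 9 genes, beside 0.062% of all genes, with 0 at an unadjusted p below 0.05 by limma or edgeR. The blocked fit called 0 of the 9 for UNC with 3C, beside 17.8% of all genes. For UNC without 3C it also called 0 of the 9, beside 409 of 16138 genes.

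In the iPSC Laptm5, Cd68 and Lyz2 had 45 reads or more in every library, and the other 6 genes had 16 or fewer. Laptm5 stood at 90.9, 93.4 and 88.2 CPM in iPSC UNC, against 91.8, 96.9 and 88.6 CPM in iPSC DMSO. Cd68 stood at 15.8, 17.6 and 16.7 CPM in iPSC UNC, against 15.8, 20.9 and 26.5 CPM in iPSC DMSO. Lyz2 had 70, 98 and 94 reads in iPSC UNC, against 45, 112 and 101 in iPSC DMSO. In both groups of iPSC, replicate 1 was the lowest for Lyz2, although the numbers were not shown to pair these libraries. That order rests on the titles, as the descriptions number the iPSC DMSO replicates differently. Adgre1 had 8 to 9 reads in iPSC UNC, against 4 to 16 in iPSC DMSO, and Csf1r 7 to 13 against 6 to 11. Tyrobp had 2 to 5 reads against 1 to 3, and Ptprc 1 to 5 against 1 to 3.

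Only Lyz2, Cd68, Csf1r, Fcer1g and Laptm5 passed the expression filter of the iPSC test. edgeR called 0 of those 5 for UNC in iPSC, beside 1.31% of 17987 genes, with 0 at an unadjusted p below 0.05, and DESeq2, which gave 2 of them no adjusted p, called 0 of the rest with 1 unadjusted. The largest log2 fold change was that of Cd68, at -0.33 (edgeR adjusted p = 0.412). Of the wider list 0 of 15 were called. Csf1 rose in iPSC UNC to 118, 125 and 117 CPM, against 67.5, 75.3 and 50.3 CPM in iPSC DMSO (log2 fold change 0.91, edgeR adjusted p = 0.00363). Fibroblast genes moved with it, 6 of 7 being called higher, beside 229 of 17987 genes tested. Their part in the result was not tested.

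The 2 tables were scaled separately and no test was made between them. Side by side, the 7 genes other than Laptm5 and Cd68 were summed. They stood at 4.14 to 6.21 CPM in iPSC UNC and 3.28 to 6.37 CPM in iPSC DMSO. In the reprogramming groups they stood at 3.04 to 5.02 CPM in replicate 1 and 11.2 to 24.2 CPM in replicates 2 and 3. Laptm5 was in the order iPSC, then groups without 3C, then groups with 3C, with no overlap between the 3 sets. Kit, on the mast cell list but also known from pluripotent cells, had 3705 reads or more in every iPSC library and at most 34 in a reprogramming library.

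The genes whose levels went most closely with Lyz2 were sought over the 12 reprogramming libraries, after subtracting each group's mean on the log2 scale. The 8 highest Pearson correlations were 0.97 to 0.98, for Mrc1, Myl9, Ctsd, Actg2, Csrp1, Msr1, C1qc and Slc35e4. Myl9, Actg2 and Csrp1 encode contractile and cytoskeletal proteins of smooth muscle cells and fibroblasts. Myl9 had 478 and 423 reads in replicates 2 and 3 of DOX 3C, against 224 in replicate 1, and 3961 and 4576 in DOX UNC, against 3754. Among the other 8 markers r was 0.96 for Adgre1, 0.94 for Csf1r, 0.93 for Fcer1g and Ptprc, 0.82 for Cd68, 0.81 for Tyrobp, 0.69 for Laptm5 and 0.37 for Ctss. The 12 points share their libraries and depth, and the 4 numbered 1 stand apart from the rest, so these values describe that separation. By Spearman's rho 0 of the same 8 genes stayed among the top 8. Against the summed level of the other 8 markers, of which Laptm5 had the most reads in the libraries without 3C, the 8 highest were Metap1, C3ar1, B630019K06Rik, Gm4806, Fam174b, Elmo2, Fam84a and Basp1, all at 0.96, and 5 of them stayed by Spearman's rho. C3ar1, the complement C3a receptor gene, is known from macrophages and had 1 to 24 reads.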

How the data were processed

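The reprogramming table held signal as the authors deposited it: each column was a read count over a single scaling factor of that library. Taking the smallest value above 0 in a column as 1 read gave the reads back, and 100% of values were whole within 0.01 read. The iPSC table held raw read counts as deposited. The tools named in the submitters' processing notes were HTSeq 0.5.4p3, DESeq, SAMtools 1.8 and TopHat2 2.1.0, with mm10 as build, and their settings were not given in the sources used here. Symbols matched 54042 of 54109 and 54723 of 54838 identifiers. A further 2 table columns, which fit none of the samples listed, stayed out. The 10 H3K9me2 samples were not analysed here. The iPSC DMSO titles and descriptions number the replicates differently, and the titles were followed.

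The log2 of value + 1 was tested with limma 3.58.1 (empirical Bayes with a mean trend, R 4.3.3), with 12 libraries in 1 fit, for genes reaching 10 in 3 or more libraries. For iPSC counts the test was the quasi-likelihood one of edgeR 4.0.16, after its default filter and TMM scaling. Benjamini-Hochberg adjustment of p-values was made over all genes tested, and adjusted p below 0.05 was called. Log2 fold changes are on the log2(value + 1) scale, which understates changes of low genes. The fits were tested on simulated data. Alternatives were a pseudocount of 5, no filter, edgeR and DESeq2 1.42.0 on recovered reads, leaving out each library, a block for replicate number, and, added after seeing the data, leaving out the 4 libraries numbered 1. Counting error alone limits the genes with few reads.

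The members and lists were chosen with earlier results of these data known. Named were all 9 members, wider-list genes called in a comparison or among its 6 highest levels, up to 3 genes of each other list, and the 8 genes most like Lyz2 or most like the other members. Other genes named, such as C1qc, Msr1, Spi1, Cd163, Folr2, Mpeg1, C1qa, Thy1, Pdgfrb and Pdgfra, were chosen after their values were seen. A gene of the wider list that the rule named is counted with its list but not reported here by itself. Deviations of same-numbered libraries from their group means correlated across genes with r of 0.106 to 0.205 for UNC with 3C and both 3C comparisons, so the numbers were taken to pair those libraries. For UNC without 3C the same-numbered r were 0.223, 0.211 and 0.094, against -0.194 to -0.013 between unlike numbers. Subtracting group means lowers r between unlike numbers when that of like numbers is high. The negative values are therefore no separate support. DOX and DOX UNC are also linked by number through the other comparisons, so their numbers pair as well. In iPSC the lowest same-numbered r was 0.0713, below the 0.131 reached between unlike numbers. The iPSC libraries were not taken as paired.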

Additional observations from a re-analysis of the deposited data

How the results depend on the processing

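Among the genes with an adjusted p, 0 of the 9 were called for either effect of UNC, for their difference or for UNC in iPSC under the alternatives run. DESeq2 gave no adjusted p for 6 of the 9 for UNC without 3C, 4 for UNC with 3C, 6 for the difference and 2 of 5 in iPSC. Laptm5 kept its call for 3C in all. Members called for 3C without UNC were 1 with no filter and 1 to 2 when a library was left out. For 3C with UNC they were 6 with the replicate block and 2 to 4 with a library left out. Over all genes, calls for UNC without 3C were 409 with the replicate block, 169 with DESeq2 and 19 to 146 with a library left out. For UNC with 3C they were 2871 with the replicate block and 1034 to 1921 with a library left out. For the difference of the 2 effects of UNC they were 413 with the replicate block, 155 with DESeq2, 29 with a pseudocount of 5, 17 with edgeR and 0 to 70 with a library left out. For UNC in iPSC they were 407 with the replicate block, 392 with DESeq2, 823 with no filter and 84 to 217 with a library left out. A planned test of replicate number is not reported, since the genes were chosen on that contrast. The cause was not tested.

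Adgre1 turned to 0.17 with edgeR, 0.10 with DESeq2 and 0.10 without the 4 libraries numbered 1 for 3C without UNC. With a library left out, log2 fold changes for 3C with UNC ran from -0.30 to 1.42 for Lyz2, -0.87 to 0.27 for Csf1r, -0.42 to 1.36 for Tyrobp and -0.12 to 0.32 for Cd14. For 3C without UNC they ran from -0.011 to 1.61 for Lyz2, -0.73 to 0.57 for Csf1r, -0.86 to 0.64 for Tyrobp, -0.77 to 0.61 for Adgre1 and -0.44 to 0.20 for Mertk. Cd14 turned to -0.34 for 3C with UNC without the 4 libraries numbered 1. Taking the authors' scaled values in place of CPM left the ratio for Lyz2 at 5.81, and that for Laptm5 at 1.07.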
